A study of Mus musculus with 10 samples.

Results

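The genes of the MHC class II presentation pathway were followed through 10 libraries of CD31-positive cells from mouse B16F10 melanomas. The members were the rows of the deposited tables for 10 named genes, H2-Aa, H2-Ab1, H2-Eb1, Cd74, Ciita, H2-DMa, H2-DMb1, H2-DMb2, H2-Oa and H2-Ob, out of 28454 gene symbols. All 10 were found, and all 10 passed the filter on low values, at least 1 FPKM in at least 4 libraries. FPKM, a fragment count divided by transcript length and library size, sets genes of different length on 1 scale.

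B16F10 is a mouse melanoma line that grows as a pigmented tumour. The 6 Shb-inactivated libraries came from tumours in adult Shbflox/flox/Cdh5-CreERt2 mice, in which the adaptor gene Shb is floxed, and the 4 wild-type libraries from tumours in adult Cdh5-CreERt2 mice. Both groups carry the inducible Cre, which is driven by Cdh5, the gene of the endothelial adhesion protein VE-cadherin, so the recombinase is directed at endothelium, and the grafted tumour cells do not descend from these mice. CD11b-positive cells, which are mainly myeloid, were depleted before CD31 was selected on magnetic beads. The tissue label reads tumours, while the source label names tumours and lungs.

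MHC class II molecules carry peptides from proteins taken up by a cell to its surface, where CD4+ T cells read them. An alpha and a beta chain pair in the endoplasmic reticulum with the invariant chain, which fills the groove until the DM protein exchanges its remnant for a peptide, and the DO protein holds DM back. B cells, dendritic cells and macrophages make these proteins as part of their identity, under the transactivator CIITA, whereas endothelial cells can make them after exposure to interferon gamma.

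In GRCm38, 8 of the genes lie in the MHC region on chromosome 17, between the start of H2-Oa at 34092340 and the end of H2-Eb1 at 34316674. Class II promoters are known for an X box and a Y box at a fixed distance, to which RFX and NF-Y proteins bind. The stretches below, from the RefSeq promoter windows of GRCm38.p6 (250 bases before to 50 bases after each start), show where the core of the Y box, GATTGG, and the core of the X box, ACNGATG, stand in capitals. They are written 5′ to 3′ on the strand of the gene, and are shown for the near-identical pair of DM beta chain genes, for H2-Ob, and for an alpha and a beta chain gene.
H2-DMb2, chr17:34145119-34145168 (+): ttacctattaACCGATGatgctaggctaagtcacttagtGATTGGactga
H2-DMb1, chr17:34153096-34153125 (+): agtaACTGATGatgctaggctgattcactc
H2-Eb1, chr17:34305769-34305818 (+): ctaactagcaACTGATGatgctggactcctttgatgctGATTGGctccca
H2-Ob, chr17:34238807-34238856 (+): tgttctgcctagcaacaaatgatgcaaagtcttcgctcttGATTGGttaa
H2-Aa, chr17:34287862-34287911 (−): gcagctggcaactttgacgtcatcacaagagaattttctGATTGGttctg

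Of the 10 genes, 7 had a promoter window, and none was matched for H2-Ab1, Cd74 and Ciita, of which Ciita lies on chromosome 16. The Y core was found on either strand in 7 of the 7, against 16.1% of 32851 windows of all genes, and the X core in 5 of the 7, against 9.85%. In H2-DMb1, H2-DMb2 and H2-Eb1 the Y core began 28 or 29 bases after the X core, a spacing chosen after these windows were seen. Of all windows, 8, or 0.0244%, held both cores at that spacing. The X core of H2-Aa lay on the opposite strand, 232 bases before the start, and that of H2-Oa 137 bases before. Neither stood at that spacing to a Y core. The printed stretch of H2-DMb1 stops before its Y core, which begins 62 bases before the RefSeq start. A match is a run of letters and not a measured binding site. The X and Y cores of H2-DMb1 and H2-DMb2 stood at the same spacing.

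The libraries were checked before the members were compared. Shb ran from 0.37 to 1.44 FPKM in the Shb-inactivated libraries and from 2.78 to 5.44 FPKM in the wild-type libraries, with no overlap. The endothelial genes Pecam1, which encodes CD31, and Cdh5 averaged 963 and 523 FPKM in Shb-inactivated libraries and 759 and 402 FPKM in wild-type libraries, so both defining markers of the label were abundant. Itgam, which encodes CD11b, was 0.27, 0.30, 29.3, 35.9, 0.42 and 0.32 FPKM in Shb-inactivated replicates 1 to 6 and 2.27, 5.85, 109 and 0.20 FPKM in wild-type replicates 1 to 4. The 3 libraries Shb-inactivated 3, Shb-inactivated 4 and wild-type 3 thus stand apart and go against the depletion of CD11b-positive cells, and the slopes, correlations and group differences below are given also for the other 7 libraries. Cd79a, which encodes a subunit of the B cell receptor, was 8.35, 6.42, 0.56, 1.09, 1.45 and 3.11 FPKM in Shb-inactivated libraries and 8.35, 3.92, 4.15 and 8.5 FPKM in wild-type libraries. It was lowest in Shb-inactivated 3 and 4. Sequencing depth is unknown, because FPKM keeps no read totals.

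Per length, the classical chains and the invariant chain were the abundant members. In 10 of 10 libraries Cd74 was the highest, followed by H2-Aa, H2-Ab1 and H2-Eb1, and each of the other 6 lay below H2-Eb1. Ciita was the lowest member in 8 libraries, the exceptions being wild-type 1 and 3, where H2-Oa was lower. The 10 members together made up 0.0195% of the summed FPKM in Shb-inactivated 5, the lowest library, and 0.274% in wild-type 3, the highest. From the lowest to the highest library the levels of single members differed by 7.70-fold (H2-DMb2) to 21.7-fold (Ciita), with the lowest value in a Shb-inactivated library and the highest in a wild-type library for every member. Within the wild-type libraries the ranges were 1.90-fold (H2-Ob) to 7.94-fold (H2-DMb1), and within the Shb-inactivated libraries 2.69-fold (H2-Aa) to 10-fold (Ciita).

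H2-Aa, which encodes the alpha chain of the I-A molecule, had 85.3, 75.0, 38.1, 76.5, 31.7 and 43.2 FPKM in Shb-inactivated replicates 1 to 6 and 109, 77.5, 416 and 98.6 FPKM in wild-type replicates 1 to 4. Of the 6 Shb-inactivated libraries, 5 lay below the lowest wild-type library, and only Shb-inactivated 1 overlapped. H2-Ab1, the beta chain that pairs with it, had 52.5, 49.8, 23.2, 49.4, 19.5 and 23.8 FPKM in Shb-inactivated libraries and 61.6, 46.2, 277 and 52.2 FPKM in wild-type libraries. H2-Eb1, the beta chain of the I-E molecule, had 52.2, 42.8, 18.1, 43.4, 15.1 and 19.8 FPKM in Shb-inactivated libraries and 59.4, 41.3, 245 and 50.03 FPKM in wild-type libraries. For both beta chains Shb-inactivated 3, 5 and 6 were the lowest libraries, the groups overlapped, and wild-type 3 stood far above every other library. The pseudogene of the I-E alpha chain, H2-Ea-ps, was listed at 0 in every library except wild-type 2, where it was 0.02 FPKM.

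The chains kept nearly fixed proportions while their levels changed over 13.1-fold (H2-Aa) to 16.2-fold (H2-Eb1). The ratio of H2-Aa to H2-Ab1 lay between 1.502 and 1.89 over all 10 libraries, and that of H2-Eb1 to H2-Ab1 between 0.775 and 0.994. Across the 10 libraries, Pearson correlations on the log2(FPKM + 1) scale were 0.995 for H2-Aa with H2-Ab1 and 0.996 for H2-Aa with H2-Eb1, as a description over libraries that share a sort, and 0.985 and 0.990 over the 7 libraries with little Itgam.

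Cd74 encodes the invariant chain. It had 136, 124, 45.2, 96.8, 34.0 and 53.4 FPKM in Shb-inactivated libraries and 171, 97.3, 571 and 129 FPKM in wild-type libraries. Its order followed that of the chains, with Shb-inactivated 5, 3 and 6 lowest and wild-type 3 highest, and its r with H2-Aa was 0.988. Ciita, the transactivator, had 1.21, 1.30, 0.30, 0.57, 0.13 and 0.45 FPKM in Shb-inactivated libraries and 2.27, 0.67, 2.82 and 0.85 FPKM in wild-type libraries. Its highest values were in wild-type 3 and wild-type 1, while wild-type 2 and 4 lay within the Shb-inactivated range.

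**Figure D1:**
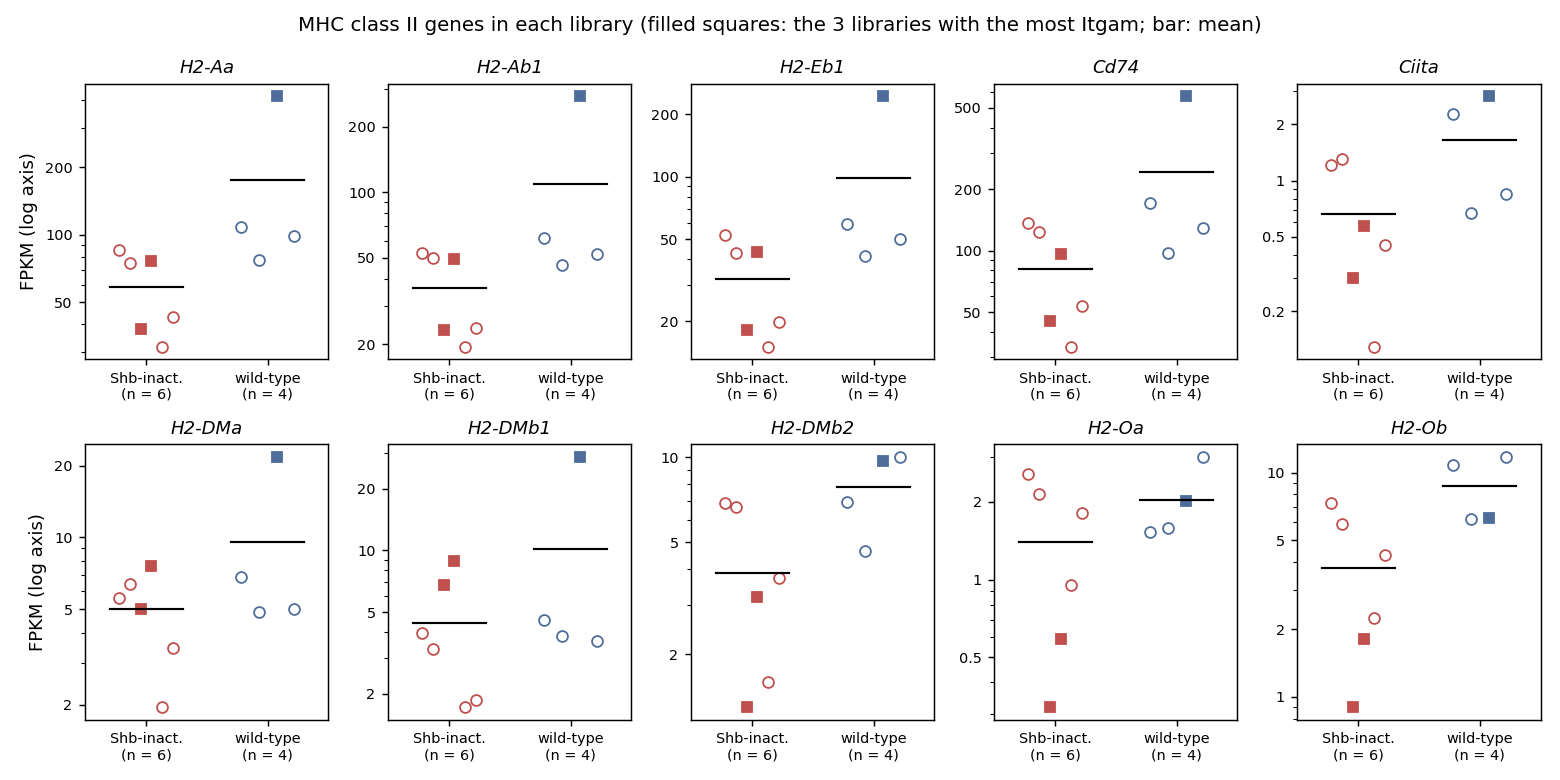
FPKM of each of the 10 class II genes in every library on log axes, with Shb-inactivated libraries (n = 6) left of wild-type libraries (n = 4) and a bar at each mean. Filled squares are the 3 libraries with the most Itgam, and wild-type 3 is the highest point for H2-Aa, H2-Ab1, H2-Eb1, Cd74, Ciita, H2-DMa and H2-DMb1 but not for H2-DMb2, H2-Oa and H2-Ob.

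The genes of the DM peptide editor differed in which libraries were high. H2-DMa, the DM alpha chain, had 5.6, 6.42, 5.04, 7.61, 1.95 and 3.46 FPKM in Shb-inactivated libraries and 6.82, 4.89, 21.7 and 5.04 FPKM in wild-type libraries. H2-DMb1, a DM beta chain, had 3.97, 3.31, 6.75, 8.84, 1.72 and 1.87 FPKM in Shb-inactivated libraries and 4.56, 3.83, 28.6 and 3.60 FPKM in wild-type libraries. Its 3 highest libraries were the 3 rich in Itgam.

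H2-DMb2, the second DM beta chain gene, had 6.87, 6.66, 1.30, 3.19, 1.60 and 3.72 FPKM in Shb-inactivated libraries and 6.91, 4.66, 9.68 and 10.01 FPKM in wild-type libraries. Its lowest library, Shb-inactivated 3, was the third highest for H2-DMb1. The ratio of H2-DMb1 to H2-DMb2 was 5.19 in Shb-inactivated 3, 2.77 in Shb-inactivated 4 and 2.95 in wild-type 3, and 0.360 to 1.08 in the other 7 libraries, of both groups. H2-DMb1 thus held 73.5% to 83.9% of the summed beta chain FPKM in those 3 libraries and 26.5% to 51.8% in the other 7. H2-DMa stayed closer to the sum of both beta chain genes, at a ratio of 0.370 to 0.644 over all 10 libraries.

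The pair needs care, because the genes are near copies that lie 1516 bases apart. Their first transcripts in GENCODE vM21 are 1424 bases long for H2-DMb2 and 1404 for H2-DMb1 and were 95.8% identical over 1080 aligned bases. Of all 50-base windows of the H2-DMb2 transcript, 26.8% occur unchanged in that of H2-DMb1, and 13.5% of 100-base windows do. How the authors' counting divided such fragments is not given in the sources used here, so the absolute ratio is uncertain.

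DO restrains DM and is best known from B cells. H2-Oa, its alpha chain, had 2.57, 2.15, 0.32, 0.59, 0.95 and 1.82 FPKM in Shb-inactivated libraries and 1.53, 1.58, 2.01 and 2.99 FPKM in wild-type libraries. H2-Ob, its beta chain, had 7.29, 5.87, 0.90, 1.82, 2.26 and 4.28 FPKM in Shb-inactivated libraries and 10.8, 6.18, 6.28 and 11.7 FPKM in wild-type libraries. Both were lowest in Shb-inactivated 3 and 4 and highest in wild-type 4, and wild-type 3 did not stand apart. For H2-Ob only Shb-inactivated 1 exceeded the lowest wild-type library. The r between them was 0.89, that of H2-Ob with H2-DMb2 0.90 and that of H2-Ob with H2-DMb1 −0.05. Over the 7 libraries with little Itgam these were 0.69, 0.94 and 0.86, so the low r of H2-Ob with H2-DMb1 rests on the other 3.

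The members' relation to the B cell gene Cd79a and the myeloid gene Itgam was fitted for all genes at once with limma, with both markers as terms on the log2(FPKM + 1) scale. A slope of 1 then means that a member doubles when the marker doubles, both in FPKM + 1, with the other marker held fixed. The slope on Cd79a was positive and past the threshold, a Benjamini-Hochberg adjusted p under 0.05, for 8 of the 10 members, against 0.359% of the 12803 genes fitted. The slope on Itgam was positive and past the threshold for 8 of 10, against 7.18% of genes, and both were for 7 of 10, against 0.117%, which is 15 genes in all. This joint count was 0 without the 3 libraries with the most Itgam, 2 with the group as a further term and 3 with no filter. It was 4 with quantile normalization and 4 to 7 with 1 library left out. For these settings the joint share over all genes was not computed. Marker genes were chosen by name for the members' known sources, so these slopes describe covariation between libraries and not where a transcript was made. In bulk samples, fewer cells of a type and less RNA per cell cannot be told apart.

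The chains and Cd74 had called slopes on both markers when both were in the fit. Cd79a and Itgam had an r of −0.51 with each other over the 10 libraries, and with each marker alone none of these 4 genes was called on either. The slopes of H2-Aa were 1.03 on Cd79a (SE 0.12, limma adjusted p = 0.00634) and 0.40 on Itgam (SE 0.05, adjusted p = 0.000291), against 0.51 (adjusted p = 0.287) and 0.20 (adjusted p = 0.345) with each marker alone. Those of Cd74 were 1.22 on Cd79a (adjusted p = 0.00199) and 0.42 on Itgam (adjusted p = 0.000132), from the same limma fit. H2-Ab1 and H2-Eb1 lay beside them, at 1.02 and 1.14 on Cd79a and 0.42 and 0.43 on Itgam. Ciita had 0.62 (limma adjusted p = 0.0338) and 0.18 (adjusted p = 0.0178). Its Cd79a call was lost with pseudocount 5 (limma adjusted p = 0.0875), no filter (0.104) and quantile normalization (0.0789), and kept with pseudocount 0.1 (0.0173). Its place among the members depends on the pseudocount, since with 0.1 in place of 1 its Cd79a slope was 0.94, against 0.91 for Cd74 and 0.77 for H2-Aa.

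Among the DO and DM genes, H2-Ob and H2-DMb2 had steep slopes on Cd79a and shallow ones on Itgam, whereas H2-DMb1 had a shallower slope on Cd79a and a steeper one on Itgam. H2-Ob had a slope of 0.95 on Cd79a (SE 0.10, limma adjusted p = 0.0027) and 0.04 on Itgam (SE 0.04, adjusted p = 0.67, 95% interval −0.05 to 0.12). H2-Oa had 0.46 on Cd79a (limma adjusted p = 0.0908) and −0.02 on Itgam (adjusted p = 0.886), so neither slope passed. H2-DMb1 had 0.47 on Cd79a (limma adjusted p = 0.0909) and the steepest Itgam slope of the members, 0.45 (SE 0.04, adjusted p = 3.99e-05). H2-DMb2 had 0.91 on Cd79a (limma adjusted p = 0.00368) and 0.14 on Itgam (adjusted p = 0.0424), with intervals of 0.70 to 1.13 and 0.06 to 0.23. The Itgam call of H2-DMb2 was borderline. It was lost with pseudocount 0.1 (limma adjusted p = 0.0695), no filter (0.0858) and quantile normalization (0.0547), and kept with pseudocount 5 (0.0345). H2-DMa stood between, at 0.60 and 0.33, both past the threshold. Its Cd79a call (limma adjusted p = 0.0324) was borderline too. That call was lost with pseudocount 0.1 (0.0703), no filter (0.113) and quantile normalization (0.0789), and kept with pseudocount 5 (0.0474). The 95% intervals of the Itgam slopes of H2-DMb1 (0.36 to 0.54) and H2-DMb2 did not overlap, and the difference itself was not tested.

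**Figure D2:**
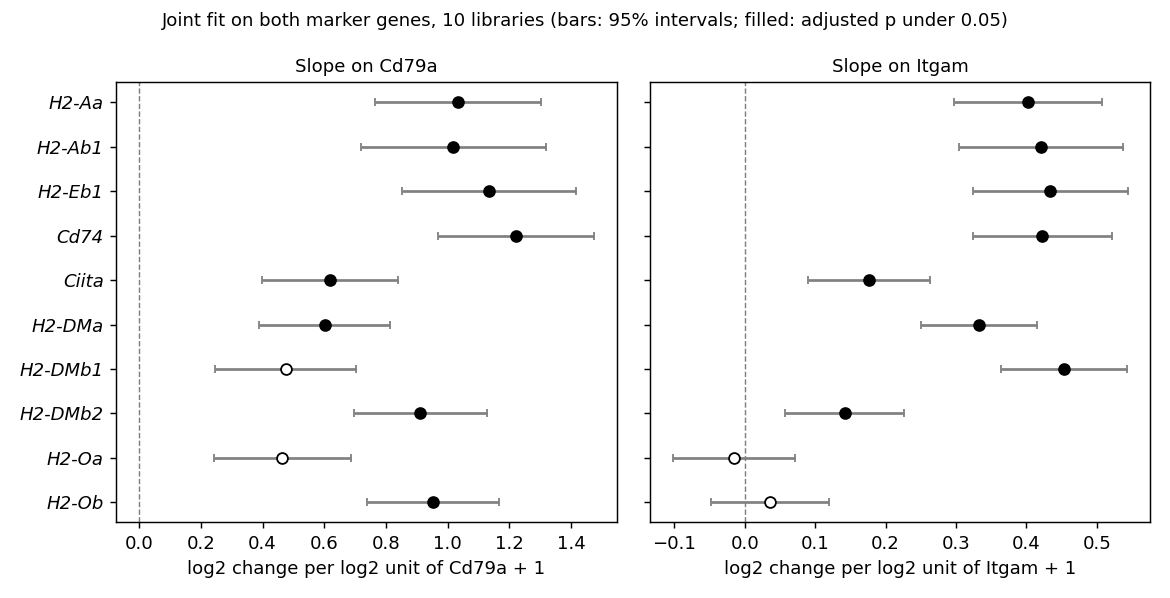
Slope of each class II gene on Cd79a (left) and Itgam (right), from 1 limma fit on 10 libraries. Gene and marker are both in log2 units of FPKM + 1. Bars are 95% intervals and filled points have an adjusted p under 0.05, with H2-Ob near 0 on Itgam and H2-DMb1 the steepest there.

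Together the 2 markers accounted for 83.2% (H2-Oa) to 94.5% (H2-DMb1) of the variance of each member over the 10 libraries, against a median of 42.3% over all genes. Cd79a alone accounted for 93.5% of the variance of H2-Ob, 82.8% for H2-Oa and 77.9% for H2-DMb2, but 1.21% for H2-DMb1. For H2-Aa Cd79a alone accounted for 22.7% and both for 91.7%. In the 7 libraries with little Itgam both markers accounted for 73.5% (H2-Oa) to 98.6% (H2-Aa), against a median of 40.9% over all genes, and Cd79a alone for 61.5% (H2-Oa) to 93.2% (H2-DMb2), including 74.3% for H2-DMb1.

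**Figure D3:**
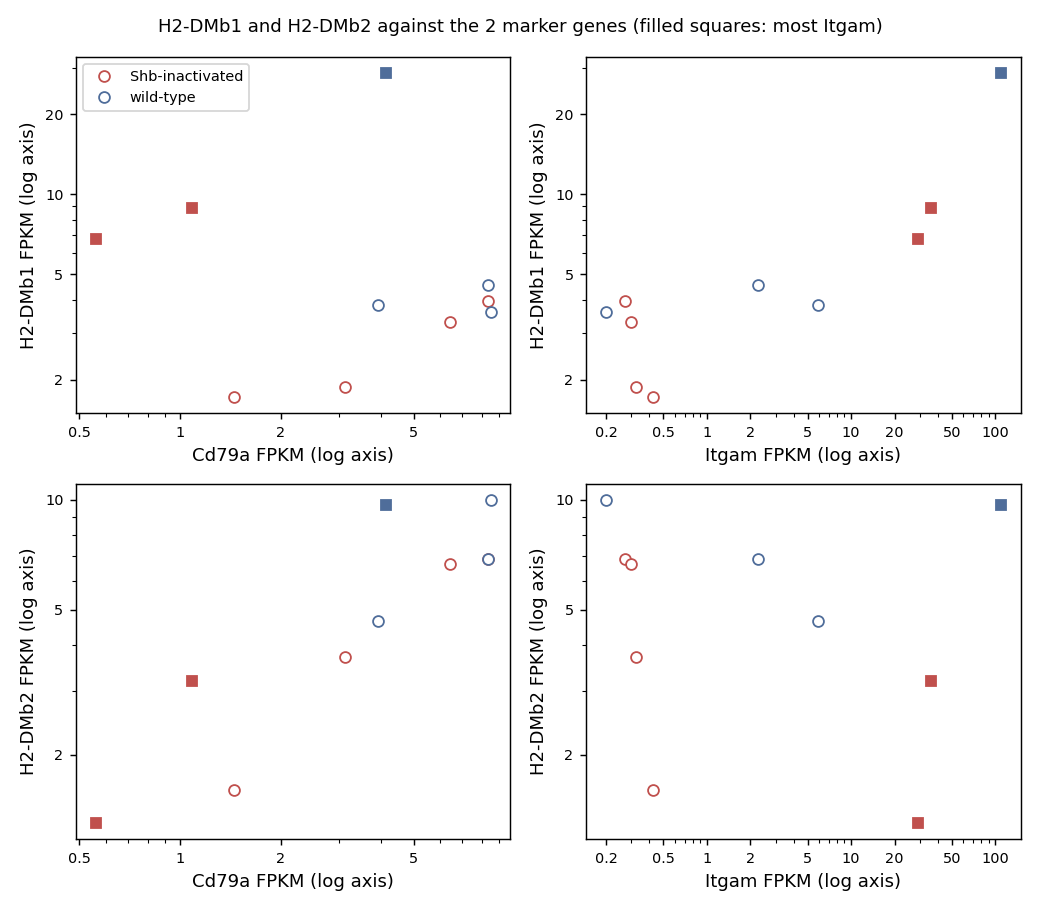
H2-DMb1 (top) and H2-DMb2 (bottom) against Cd79a (left) and Itgam (right), in FPKM on log axes, 1 point per library, with filled squares for the 3 libraries with the most Itgam. H2-DMb1 is highest in those 3 libraries, whereas H2-DMb2 spreads along Cd79a and has its lowest value, 1.30 FPKM, in 1 of them.

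The shares for Cd79a alone are squares of its correlation with each member. Over 10 libraries Pearson's r was 0.97 for H2-Ob (rho 0.96, permutation p = 1e-05, the smallest that 100000 resamples give), 0.91 for H2-Oa (rho 0.84, permutation p = 0.00039) and 0.88 for H2-DMb2 (rho 0.91, permutation p = 0.00096). It was 0.43 to 0.57 for the chains and Cd74 (permutation p 0.0859 to 0.223) and −0.11 for H2-DMb1 (permutation p = 0.782). Without Shb-inactivated 3 and 4, the libraries farthest from the median of Cd79a, r was 0.92 for H2-Ob, 0.77 for H2-Oa and 0.83 for H2-DMb2. In the 7 libraries with little Itgam, r with Cd79a ran from 0.78 for H2-Oa (exact permutation p = 0.0345) to 0.97 for H2-DMb2 (exact permutation p = 0.000397), and it was 0.86 for H2-DMb1 (exact permutation p = 0.0135). Itgam falls into separate clusters, so no r of it with the members over all 10 libraries is given. Within the 7 libraries its r with the members ran from −0.38 for H2-Oa to 0.43 for H2-DMb1. In all, 20 relations were computed, and the adjusted p-values are those of the joint fit.

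The ratio to Cd79a compares levels per length. H2-Ob had 0.873 to 1.67 FPKM for each FPKM of Cd79a over all 10 libraries. H2-Aa had 10.2 to 21.9 FPKM for each FPKM of Cd79a in the 7 libraries with little Itgam, and 68.0, 70.2 and 100.3 in Shb-inactivated 3, Shb-inactivated 4 and wild-type 3.

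The slopes rest on few libraries. Without the 3 libraries with the most Itgam, 0 of 10 members passed for either marker in limma, with Cd79a slopes of 0.35 to 1.07 (adjusted p 0.0554 to 0.234), and Itgam slopes of −0.12 to 0.23. There H2-Aa had 0.21 on Itgam, H2-DMb1 0.19 and H2-DMb2 0.000593, each lower than in 10 libraries. Of all genes, 0.0% had a called positive Cd79a slope there and 0.547% a called positive Itgam slope. With 1 library left out the count on Cd79a was 5 to 9, against 0.109% to 1.62% of genes, being 5 without Shb-inactivated 3, and the count on Itgam 6 to 8, against 3.82% to 8.97%. With the group as a further term the counts were 3 on Cd79a (Cd74, H2-DMa and H2-Ob), against 0.133% of genes, and 7 on Itgam, against 7.0%.

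Between the groups, all 10 members had a lower mean log2 level in Shb-inactivated libraries, and none passed the threshold. The limma count was 0 of 10, against 0.0% of the 12805 genes tested, with an adjusted p of 0.989 for each member. Shb, the inactivated gene, ranked 1 of all genes by p, with a log2 fold change of −1.27. Its limma adjusted p was also 0.989, so the threshold missed even a gene whose groups did not overlap. At an unadjusted limma p under 0.05, 6 of 10 members were lower, against 1.76% of all genes that were lower and 3.45% in either direction. When all 210 ways to split the libraries were enumerated (exact permutation test), 2 of 10, H2-Aa and H2-Ob, had a p under 0.05 and were lower, against 1.56% of genes that were lower and 3.87% in either direction. The members' median log2 fold change was −1.07, against 0.01 over all genes, of which 48.8% were below 0. The members vary together, so their shared direction is not 10 separate observations.

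The chains and the invariant chain had log2 fold changes of −1.24 to −1.37. H2-Aa averaged 58.3 ± 23.2 FPKM (SD, n = 6) in Shb-inactivated libraries and 175 ± 161 FPKM (SD, n = 4) in wild-type libraries, a log2 fold change of −1.31 (SE 0.47, two-sided exact permutation p = 0.0238). Cd74 averaged 81.5 and 242 FPKM, with −1.37 (SE 0.54, exact permutation p = 0.0571). H2-Eb1 had −1.35 and H2-Ab1 −1.24, with exact permutation p-values of 0.0571 and 0.0619. Ciita averaged 0.660 FPKM in Shb-inactivated libraries and 1.65 FPKM in wild-type libraries, with −0.64 (SE 0.29, exact permutation p = 0.081), and −1.25 with pseudocount 0.1.

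Of the DO genes, H2-Ob averaged 3.74 FPKM in Shb-inactivated libraries and 8.74 ± 2.93 FPKM (SD, n = 4) in wild-type libraries, a log2 fold change of −1.17 (SE 0.41, exact permutation p = 0.0429). With pseudocount 0.1 it was −1.45, larger than that of Cd74, −1.39. H2-Oa had −0.40 (exact permutation p = 0.243), and −0.74 with pseudocount 0.1. Of the DM genes, H2-DMb2 had −0.96 (SE 0.38, exact permutation p = 0.0524), H2-DMb1 −0.69 (exact permutation p = 0.357) and H2-DMa −0.65 (exact permutation p = 0.243). No member had groups without overlap, which 0.718% of all genes had.

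Much of the difference for some members came with wild-type 3. Without it the log2 fold change was −0.78 for H2-Aa, −0.64 for H2-Ab1, −0.78 for H2-Eb1, −0.84 for Cd74, −0.20 for H2-DMa and −0.04 for H2-DMb1, and the median was −0.71. H2-Ob and H2-DMb2 changed less, to −1.30 and −0.85. H2-Oa was −0.25 without Shb-inactivated 3 and −0.26 without wild-type 4. Ciita was −0.43 without wild-type 3. Without all 3 libraries rich in Itgam the median was −0.63. The values were then −0.78 for H2-Aa, −0.65 for H2-Ab1, −0.77 for H2-Eb1, −0.78 for Cd74, −0.35 for Ciita, −0.37 for H2-DMa, −0.47 for H2-DMb1, −0.60 for H2-DMb2, −0.08 for H2-Oa and −0.87 for H2-Ob. Their exact permutation p-values over 35 splits of 4 against 3 libraries were 0.114 to 0.771, where the smallest possible is 0.0286.

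With Cd79a and Itgam as covariates the sign turned for 9 of 10 members. H2-Aa was then 0.024, H2-Ab1 0.19, H2-Eb1 0.21, Cd74 0.30, Ciita 0.20, H2-DMa 0.44, H2-DMb1 0.36, H2-DMb2 0.035 and H2-Oa 0.026, while H2-Ob was −0.54 (SE 0.14, limma adjusted p = 0.405). The SE was 0.29 for H2-Aa, 0.32 for H2-Ab1, 0.30 for H2-Eb1 and 0.26 for Cd74, with limma adjusted p of 0.69 to 0.98. These values are therefore not told apart from 0, and those of H2-DMb2 and H2-Oa also lay near 0. For H2-DMa and H2-DMb1 the smallest limma adjusted p in any fit between the groups was 0.430 and 0.579. The median of the members was 0.20, against 0.03 over all genes, and 0 of 10 passed. Cd79a itself had a log2 fold change of −0.93 and Itgam −0.92, each with an adjusted limma p of 0.989. Without wild-type 3 Itgam averaged 11.1 FPKM in Shb-inactivated libraries and 2.77 FPKM in wild-type libraries, and its log2 difference turned to 0.38, while that of Cd79a was −1.06.

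**Figure D4:**
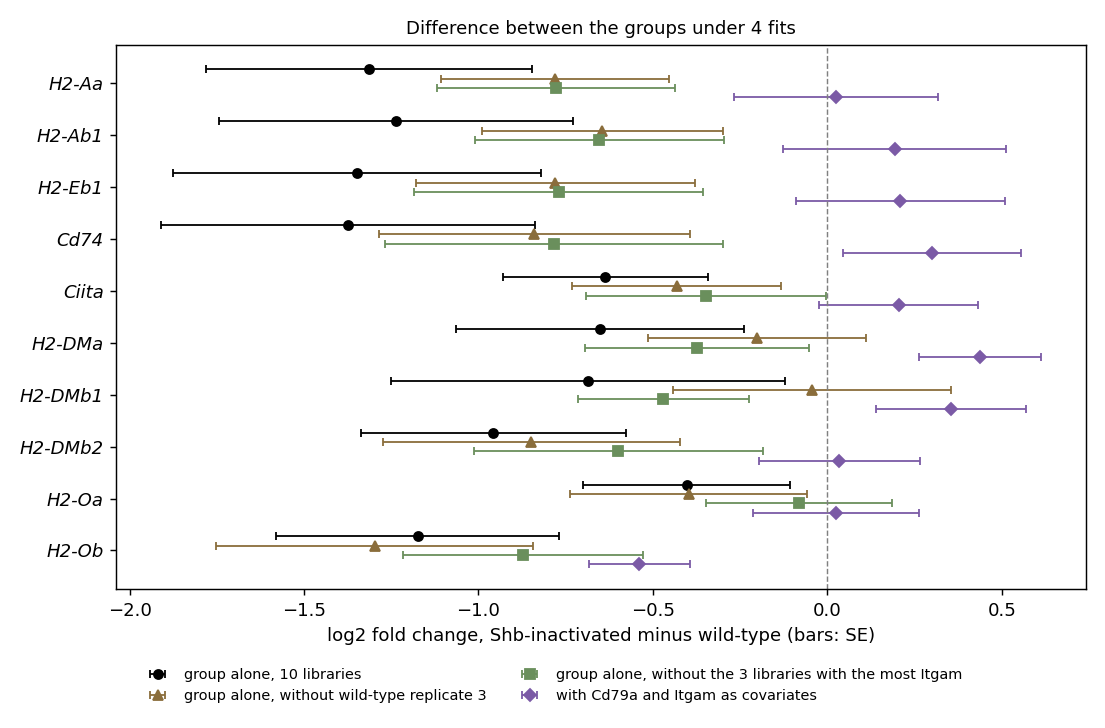
Log2 fold change of each class II gene, Shb-inactivated minus wild-type, with SE bars, in the limma fit on 10 libraries, without wild-type 3, without the 3 libraries with the most Itgam, and with Cd79a and Itgam as covariates. In the first 3 fits each gene lies below 0, and with the covariates H2-Ob is the member that remains below 0, at −0.54.

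Marker lists of other cell types also differed in level between libraries. The 15 B cell genes summed to 43.8 to 163 FPKM in Shb-inactivated libraries and 102 to 216 FPKM in wild-type libraries, and 13 of the 14 tested were below 0. Igkc and Ighm, the immunoglobulin kappa and mu genes, averaged 29.01 and 19.7 FPKM in Shb-inactivated libraries and 59.7 and 40.4 FPKM in wild-type libraries. The 15 myeloid genes summed to 59.5 to 5238 FPKM in Shb-inactivated libraries and 73.1 to 7171 FPKM in wild-type libraries, and all 15 were below 0. Lyz2, the lysozyme gene of macrophages and granulocytes, averaged 654 FPKM in Shb-inactivated libraries and 841 FPKM in wild-type libraries. Without wild-type 3 the myeloid direction turned, with 14 of 15 above 0 and Lyz2 at 140.2 FPKM in the remaining wild-type libraries, while 13 of 14 B cell genes stayed below 0. Without all 3 libraries rich in Itgam all 15 myeloid genes were below 0. Genes of dendritic cells, another known source of class II, summed to 28.8 to 62.8 FPKM in Shb-inactivated libraries and 44.7 to 102 FPKM in wild-type libraries. Of the 9 tested, 7 were below 0. The most abundant of them, Zbtb46, averaged 17.2 FPKM in Shb-inactivated libraries and 15.9 FPKM in wild-type libraries, with a log2 fold change of 0.06. The 7 melanoma genes summed to 12.4 to 342 FPKM in Shb-inactivated libraries and 85.4 to 1106 FPKM in wild-type libraries, and all 7 were below 0, whereas all 12 pan-endothelial genes were above 0. All 8 T and NK cell genes tested were below 0, and fibroblast and pericyte genes had 4 above and 4 below. None of these genes passed the threshold between the groups, none of the B cell, myeloid, dendritic cell or melanoma genes was at 0 in all libraries, and the part of these cells in the members' difference was not tested beyond the covariate fit.

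The regulators of the pathway and the interferon gamma response genes lay mostly above 0. Of 13 class II regulators, 10 were above 0, 3 below and none past the threshold, with a median log2 fold change of 0.09. Irf1, a factor that acts on Ciita, had 0.04, and Ifngr1, an interferon gamma receptor chain, 0.09. On Cd79a none of the 13 was called, against 0.359% of all genes with a positive call. On Itgam 1 of 13 had a positive call, close to the share over all genes, 7.18%. It was Spi1, the myeloid and B cell factor PU.1, at a slope of 0.83 (limma adjusted p = 1.78e-06). Of 18 interferon gamma response genes, 15 were above 0, 3 below and none past the threshold, with a median of 0.30. Psmb8, an immunoproteasome subunit, had 0.12. Of the 18, 1 had a called positive Itgam slope, the chemokine gene Cxcl10 at 0.29, against 7.18% of genes. Cxcl9 had a called negative one, −0.22, against 2.34% of genes with a negative call.

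Of the 16 tested genes for antigen processing and other class II genes, 11 were above 0 and 5 below, none past the threshold. The lysosomal proteases Ctsd, Ctsl and Ctsb had log2 fold changes of 0.00, 0.18 and 0.22. A called positive Itgam slope was found for 7 of the 16, against 7.18% of genes, namely Ctsd, Ctsz, Lgmn, Ctsb, March1, Ctss, which trims the invariant chain and had a slope of 0.96, and Ifi30, a thiol reductase of the lysosome, with 0.66. H2-Eb2, a further class II beta chain gene, was the 1 of 16 with a called Cd79a slope, 0.46 (limma adjusted p = 0.0324), against 0.359% of genes. Of 4 tested costimulation genes all 4 were below 0 and none passed (all 4 were above 0 without wild-type 3), with Cd40 at −0.20, Cd86 at −0.60 and Cd274 at −0.11, and 3 had a called Itgam slope, Icosl, Cd274 and Cd86. Of the 13 B cell genes fitted on the markers, 5 had a called Cd79a slope, among them Blk, Cd79b, Igkc and Ighm, while Pax5 (limma adjusted p = 0.0597), Ms4a1 (0.0871) and Cd22 (0.592) were among those that did not, and all 14 myeloid genes fitted had a called Itgam slope.

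The genes most like the members over the 10 libraries were sought by Pearson's r with the members' mean log2(FPKM + 1). Napsa, an aspartic protease gene, came first, with r 0.97 and rho 0.95. It was followed by Map3k14, which encodes the kinase NIK, and Lsp1, a leukocyte protein gene, with r 0.94 for both, and by Gstp1.1 and Cytip, with r 0.93 for both. Gpr132, Itgb7, Sirt7, Map4k1 and H2-Eb2 completed the first 10, with r of 0.90 to 0.91. Napsa averaged 2.21 FPKM in Shb-inactivated libraries and 4.64 FPKM in wild-type libraries, with 8.36 FPKM in wild-type 3, and the mean it is set against has the same high library. Over the 7 libraries with little Itgam its r was 0.96, and r of the 10 genes ran from 0.82 (Gpr132) to 0.97 (H2-Eb2).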

How the data were processed

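Total RNA of CD31-positive cells was sequenced after ribosomal RNA removal with a stranded kit, per the labels' protocols. The authors deposited FPKM for each gene symbol. TopHat2 2.1.1, Cufflinks 2.2.1 and GRCm38 stand in the submitters' processing notes. The annotation is not given in the sources used here, nor is the strand setting of the counting. Each deposited file wrote FPKM with a decimal comma, read here as a decimal point. Depth is unknown, so no counting interval is given.

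Tests used log2(FPKM + 1) of the 12805 genes that reached 1 FPKM in 4 or more of the 10 libraries. The 6 Shb-inactivated libraries were compared with the 4 wild-type libraries in limma 3.58.1 (R 4.3.3) with a mean-variance trend, two-sided, adjusted by Benjamini-Hochberg over all genes. Each fold change is the Shb-inactivated mean minus the wild-type mean and understates changes of low genes. The marker slopes came from 1 limma fit with Cd79a and Itgam as terms over 12803 genes, all genes but the 2 markers. Single genes were also compared by a two-sided exact permutation test over 210 splits (numpy 2.4.6). The series text counts as many mice as libraries in each group, and a p-value here reflects no more than the spread among these libraries. The group fit and the Cd79a slope were also run on simulated data with independent residuals for each gene. They recovered 61% and 85% of the smaller planted changes, of size 1. In the real libraries genes vary together, so these shares need not hold for them.

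The members and gene lists were chosen with earlier results of these data known. The genes named were the 10 members, Shb, the markers Cd79a, Itgam, Pecam1 and Cdh5, from each pathway list the 3 genes with the highest mean FPKM and any past the threshold, some of the 2 most abundant genes of each cell type list, and the 10 genes most like the members; some genes the rule names are not reported here. Promoter windows came from RefSeq and gene positions from GENCODE vM21. Alternatives changed the pseudocount, filter, scaling, weights, trend, covariates, replicate block and libraries. One was chosen after seeing the data, without the 3 libraries with the least small nucleolar RNA. Shared replicate numbers do not say whether libraries of the 2 groups were paired. Plots were drawn with matplotlib 3.10.9.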

Additional observations from a re-analysis of the deposited data

Results flagged for a closer look

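Wild-type 3 stood far from the other 3 wild-type libraries for 6 members, by a test of the gap to the nearest library against the group's range. Its values were 416 FPKM for H2-Aa, 277 FPKM for H2-Ab1, 245 FPKM for H2-Eb1, 571 FPKM for Cd74, 21.7 FPKM for H2-DMa and 28.6 FPKM for H2-DMb1. These are 6 of 20 group and member combinations, where chance flags about 1 in 20 groups, and the members vary together. On the log2 scale 2 of 20 stood apart, H2-Ab1 and H2-DMb1. The same library had the most Itgam, 109 FPKM, and its H2-DMb2, H2-Oa and H2-Ob levels of 9.68, 2.01 and 6.28 FPKM lay within the range of the other wild-type libraries. The part of myeloid cells in these 6 values was not tested.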

How the results depend on the processing

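The median log2 fold change of the members was −1.07 and stayed below 0 in all alternatives but the fit with both markers as covariates, where it was 0.20, and the reversed members were H2-Aa at 0.024, H2-Ab1 0.19, H2-Eb1 0.21, Cd74 0.30, Ciita 0.20, H2-DMa 0.44, H2-DMb1 0.36, H2-DMb2 0.035 and H2-Oa 0.026. H2-Oa was 0.059 with Cd79a alone as a covariate. The median was −0.61 with pseudocount 5, −1.26 with pseudocount 0.1, −1.45 without the 3 libraries low in small nucleolar RNA and −1.24 to −0.71 with 1 library left out. No gene passed between the groups in any of these alternatives. With the replicate number as a block the median was −0.86 and 0 members passed. Deviations of same-numbered libraries correlated at 0.44, −0.32, 0.71 and −0.55. Wild-type 3 correlated at 0.75 with Shb-inactivated 4, another library rich in Itgam, so these values cannot show whether animals were paired. Members with a called Cd79a slope numbered 8 (0.359% of all genes). They numbered 5 with no filter (0.0565%), 3 with that marker alone (0.406%), 3 with a group term (0.133%), 0 without the 3 libraries rich in Itgam (0.0%) and 5 to 9 with 1 library left out (0.109% to 1.62%). For Itgam the number was 8 (7.18%), 1 with that marker alone (7.6%), 0 without those 3 libraries (0.547%) and 6 to 8 with 1 left out (3.82% to 8.97%). The Cd79a slope of H2-DMb1 was −0.11 with that marker alone. The Itgam slope of H2-DMb2 was −0.038 and that of H2-Ob −0.15 with that marker alone, that of H2-Ob was −0.032 with a group term, and that of H2-Oa ran from −0.097 without wild-type 3 to 0.000373 without Shb-inactivated 6. Depth is unknown, so low genes such as Ciita and H2-Oa are the least precise.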
